A study of Homo sapiens with 4 samples.

Results

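The 10 genes described here encode CTCF (CTCF), the core ring of cohesin (SMC1A, SMC3, RAD21), its alternative STAG subunits (STAG1, STAG2), the loader NIPBL, the release factor WAPL and the PDS5 regulators (PDS5A, PDS5B). They were taken by gene symbol from tables that hold 54628 genes each, and all 10 were found in every table and had enough counts to be tested. The libraries came from Panc1, an established cell line derived from a human ductal carcinoma of the pancreas, and were made from poly(A) RNA. By their labels 2 libraries came from cells given siRNA (small interfering RNA) directed at HMGB2, which encodes a high mobility group box protein of chromatin, and 2 from cells given a scramble siRNA. The labels number the libraries within each treatment and give no culture, dose or time, so a p-value below measures the spread between libraries, which may be technical.

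Cohesin is a ring-shaped complex that NIPBL loads onto chromatin, that extrudes loops of DNA and that WAPL, together with PDS5 proteins, takes off again. CTCF is a zinc finger protein that binds DNA at defined sites and stops the extruding ring, so that loop anchors and domain borders form there. Cohesin also holds sister chromatids together from S phase to mitosis. In senescent cells loss of HMGB2 has been described together with clustering of CTCF, which makes CTCF and its partners a natural set to follow when HMGB2 differs between samples.

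HMGB2 itself contradicted the labels, and every direction below has to be read with its counts. It had 4021 and 2746 counts in the HMGB2 siRNA-labelled libraries, against 346 and 319 counts in the scramble-labelled libraries. As CPM (counts relative to library totals scaled by the TMM factors of edgeR, the scale of every CPM value here), this was 131 ± 4.2 CPM in the HMGB2 siRNA-labelled libraries and 15.5 ± 0.29 CPM in the scramble-labelled ones (SD, n = 2 each), a fold of 8.43 (quasi-likelihood test of edgeR, adjusted p = 1.54e-33 by Benjamini-Hochberg). The count columns of the 4 tables are also headed with the treatment opposite to the label. The groups keep their labels here, with HMGB2-high or HMGB2-low added as a reminder. Total counts ran from 20340695 to 31852391, and the lowest count of any of the 10 genes in a library was 900, so counting error was small for all of them. Of 8 defining markers of other cells, PTPRC, CD3E, PECAM1, VWF, ALB and HBB were at or near 0 (summed level at most 0.159 CPM). PTPRC also stands on an alternative sequence of the assembly, where its reads could be lost. PRSS1 and INS were listed at 0 too, but 100% and 38.2% of their exonic bases are shared with a gene on the same strand. The PRSS1 zero therefore cannot be read, and the INS zero may miss reads over the shared bases. All 6 epithelial markers listed were detected, at very different levels: KRT8, KRT18 and KRT19 had at least 1960, 886 and 398 CPM in every library, while EPCAM had 16.6 to 18.5 CPM, CDH1 8.4 to 20.5 CPM and KRT7 2.59 to 4.74 CPM. Of the 6, 4 were called higher in the HMGB2 siRNA-labelled libraries and 0 lower, beside 16.7% and 14.1% of all 15161 tested genes. The counts were also 4 and 0 at an unadjusted p under 0.05, where the share of all tested genes was not computed. Among the 4 were CDH1 (2.31-fold, edgeR adjusted p = 1.06e-11) and KRT19 (1.61-fold, adjusted p = 3.15e-11).

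Of the 10 genes, 5 were called higher in the HMGB2 siRNA-labelled libraries (HMGB2-high) and 0 were called lower at an adjusted p under 0.05, while 16.7% of all 15161 tested genes were called higher, 14.1% lower and 30.8% either way. The 5 were WAPL, PDS5A, PDS5B, STAG2 and CTCF. SMC1A, SMC3, RAD21, STAG1 and NIPBL did not pass. For 9 of the 10, both HMGB2-high libraries lay above both HMGB2-low libraries, against 32.0% of all tested genes, and NIPBL had overlapping groups. In a comparison chosen after seeing the data, RLE scaling left 9 of the 10 so placed (31.9% of all tested genes), and upper-quartile and total-count scaling left 7 (26.1% and 26.6%), since SMC1A and SMC3 then overlapped as well. The median log2 fold change of the 10 was 0.17, beside -0.01 over all tested genes. With upper-quartile scaling 3 of the 10 were called higher and 0 lower, beside 2035 higher and 2809 lower among 15161 tested genes. With total-count scaling the counts of the 10 were the same, beside 2015 higher and 2641 lower. WAPL and PDS5A were the only calls that stood in every alternative run. At an unadjusted p under 0.05, 6 of the 10 were higher and 0 lower by edgeR, and the share of all tested genes at that threshold was not computed. None of the 10 was called lower by DESeq2 or limma-voom. DESeq2 called 4 higher, beside 1922 of 15161 genes, and gave no adjusted p for 2352 of the 15161. With limma-voom 5 were called higher, beside 2550 genes. In RNA of bulk cultures, fewer cells that express a gene and less of its RNA per cell cannot be told apart.

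**Figure D1:**
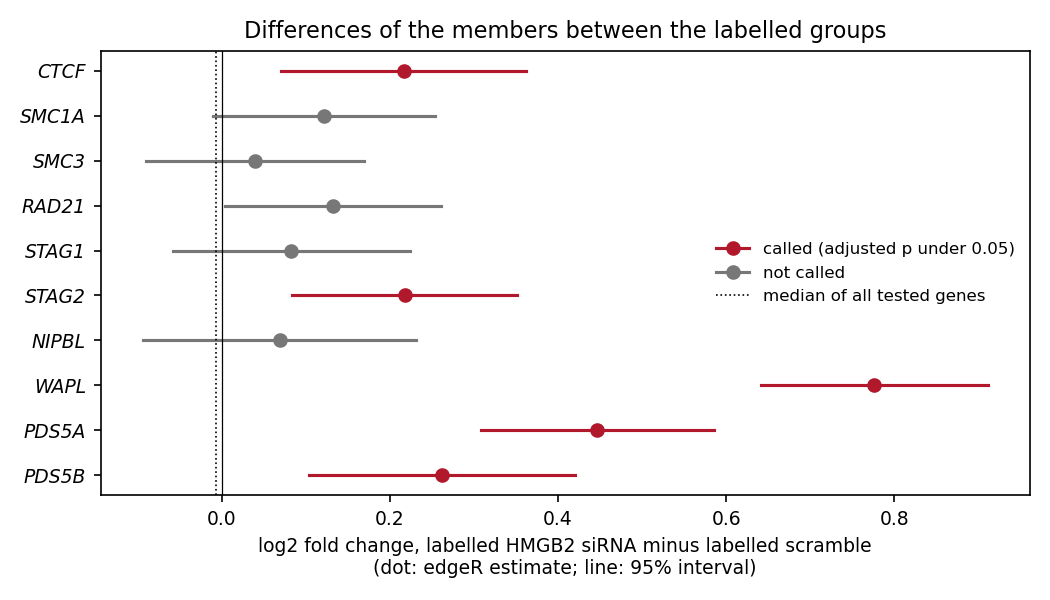
Log2 fold change of each gene between the labelled groups (horizontal axis) with its 95% interval. WAPL at 0.78 and PDS5A at 0.45 stand farthest to the right, and the intervals of SMC1A, SMC3, STAG1 and NIPBL include 0.

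Levels per length were compared as RPKM, which is CPM divided by the kilobases of annotated exons. RAD21 was the most abundant transcript in both groups, at 66.2 ± 1.5 RPKM in the HMGB2 siRNA-labelled libraries and 60.4 ± 1.3 RPKM in the scramble-labelled ones (SD, n = 2 each), and SMC3 came next, at 31.2 ± 0.41 RPKM in the HMGB2 siRNA-labelled libraries and 30.3 ± 0.65 RPKM in the scramble-labelled ones (SD, n = 2 each). In the middle stood SMC1A, PDS5A, STAG2, CTCF, WAPL and STAG1, with levels from 10.6 to 26.6 RPKM over all 4 libraries. PDS5B (5.18 to 6.51 RPKM) and NIPBL (3.84 to 4.86 RPKM) were lowest. RAD21, SMC3, PDS5B and NIPBL did not overlap their neighbours in this order in any library. Neighbours in the middle did overlap: PDS5A with SMC1A and STAG2, STAG2 with CTCF, and WAPL with both CTCF and STAG1.

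The place of WAPL in this order differed between the groups. In the HMGB2 siRNA-labelled libraries (HMGB2-high) WAPL had 18.5 and 18.6 RPKM, above CTCF with 17.84 and 17.99 RPKM. In the scramble-labelled libraries (HMGB2-low) WAPL had 10.6 and 11.1 RPKM, overlapping STAG1 with 10.8 and 10.6 RPKM and below CTCF with 15.1 and 15.7 RPKM. PDS5A had 26.5 and 25.1 RPKM in the HMGB2 siRNA-labelled libraries, where SMC1A had 23.5 and 25.6 RPKM, and 17.4 and 20.5 RPKM in the scramble-labelled ones, where STAG2 had 17.9 and 19.8 RPKM. These orders rest on the exon lengths in the files, which sum over all annotated isoforms and need not match the transcripts made in Panc1.

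**Figure D2:**
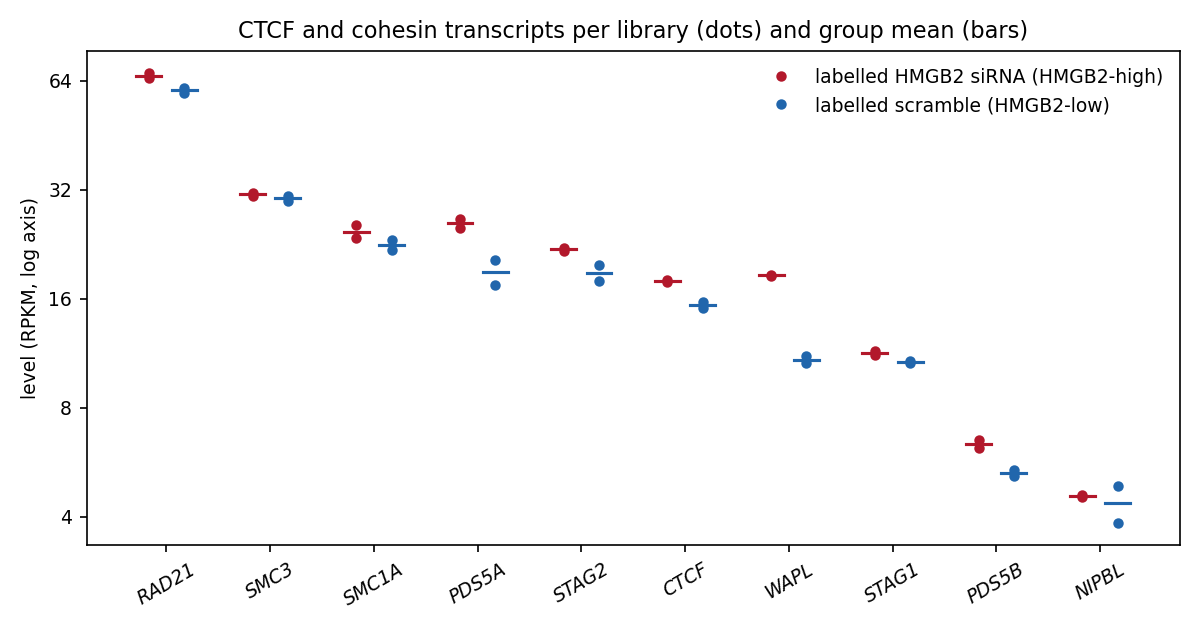
Level of each gene in each of the 4 libraries (dots) with the group mean (bars), as RPKM on a log axis, ordered by the mean over all libraries. WAPL shows the widest gap between groups, while the NIPBL dots of the scramble label spread around those of the HMGB2 siRNA label.

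CTCF (GRCh38 chromosome 16, 67562526 to 67639185, plus strand) is the architectural DNA-binding protein of the set. It had 69.4 and 70.0 CPM in the HMGB2 siRNA-labelled libraries (HMGB2-high), against 58.9 and 61.0 CPM in the scramble-labelled libraries. The groups did not overlap, and the gap was several times the difference within either pair. CTCF was 1.16-fold higher, a log2 fold change of 0.22 ± 0.07 (SE; edgeR adjusted p = 0.0182). The call was lost with upper-quartile scaling (0.17, adjusted p = 0.0744), with total-count scaling (0.17, adjusted p = 0.0748) and with DESeq2 (0.22, adjusted p = 0.0549). It was also lost without either HMGB2 siRNA-labelled library, at log2 fold changes of 0.23 without replicate 1 and 0.22 without replicate 2. No exonic base of CTCF is shared with another gene in the files, nor of SMC1A, SMC3, STAG1 or PDS5A, while RAD21 shares 4.54%, WAPL 1.3%, STAG2 0.44% and PDS5B 0.17%, mostly with genes on the opposite strand.

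The core ring differed little. SMC1A (chromosome X, 53374149 to 53422728) and SMC3 (chromosome 10, 110567695 to 110606048) are the long ATPase arms that meet at a hinge, and RAD21 (chromosome 8, 116845934 to 116874776) is the kleisin that closes the ring and is cut by separase at anaphase. SMC1A had 233 and 254 CPM in the HMGB2 siRNA-labelled libraries, against 232 and 216 CPM in the scramble-labelled libraries, so the nearest libraries of the 2 groups were almost level and overlapped with upper-quartile or total-count scaling. Its log2 fold change was 0.12, with a 95% interval from -0.01 to 0.25 (edgeR adjusted p = 0.162). SMC3 had 171 and 174 CPM in the HMGB2 siRNA-labelled libraries and 165 and 170 CPM in the scramble-labelled ones, and its interval ran from -0.09 to 0.17 (adjusted p = 0.698). The direction of SMC3 turned with upper-quartile and total-count scaling (-0.01 in both), so no direction can be given for it. RAD21 had 246 and 238 CPM in the HMGB2 siRNA-labelled libraries, against 225 and 218 CPM in the scramble-labelled ones, a clear gap between pairs but a small one. Its log2 fold change of 0.13 had an interval from 0.00 to 0.26 and an adjusted p of 0.114 by edgeR. With 1 library left out at a time, the log2 fold change ran from 0.07 to 0.19 for SMC1A and from 0.11 to 0.16 for RAD21. Without scramble replicate 1, SMC1A (0.18) and RAD21 (0.16) passed the threshold that they missed with all libraries. The largest fold the 3 intervals allow is 1.20.

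STAG1 and STAG2 are the alternative subunits that dock onto RAD21, of which STAG2 is frequently mutated in several cancers. STAG2 (chromosome X, 123960560 to 124102656) had 152 and 149 CPM in the HMGB2 siRNA-labelled libraries (HMGB2-high), against 123 and 136 CPM in the scramble-labelled libraries. The scramble libraries were apart by about the distance that separated them from the others. STAG2 was 1.16-fold higher, with a log2 fold change of 0.22 ± 0.07 (SE; edgeR adjusted p = 0.00974). This call was lost with upper-quartile scaling (0.17, adjusted p = 0.0504) and with total-count scaling (0.17, adjusted p = 0.0532). It was also lost without either HMGB2 siRNA-labelled library, at log2 fold changes of 0.21 without replicate 1 and 0.24 without replicate 2. STAG1 (chromosome 3, 136336235 to 136752412) had 76.6 and 78.6 CPM in the HMGB2 siRNA-labelled libraries and 73.8 and 72.6 CPM in the scramble-labelled ones, and did not pass (0.08, interval -0.06 to 0.22, adjusted p = 0.408).

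NIPBL (chromosome 5, 36876769 to 37066413), which loads cohesin and stimulates loop extrusion, was the gene of the 10 whose scramble-labelled libraries lay farthest apart relative to their mean. It had 60.4 and 61.3 CPM in the HMGB2 siRNA-labelled libraries, against 51.3 and 64.8 CPM in the scramble-labelled libraries, so the scramble pair enclosed the other pair. The log2 fold change of 0.07 had an interval from -0.09 to 0.23 (edgeR adjusted p = 0.57). Its sign depended on 1 library: -0.08 without scramble replicate 1 (adjusted p = 0.413) and 0.25 without scramble replicate 2 (adjusted p = 0.00654). In the files 18.6% of its exonic bases are shared with CPLANE1 on the opposite strand, and CPLANE1 had 34.1 and 36.6 CPM in the HMGB2 siRNA-labelled libraries, against 43.8 and 51.7 CPM in the scramble-labelled ones. How reads over the shared bases were counted is not given in the sources used here, and their part in the NIPBL values was not tested.

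WAPL and the PDS5 genes, which act in taking cohesin off chromatin, held the largest differences of the set. WAPL (chromosome 10, 86435256 to 86521816, minus strand) opens the ring at the junction of SMC3 and RAD21. It had 149 and 150 CPM in the HMGB2 siRNA-labelled libraries (HMGB2-high), against 85.2 and 89.0 CPM in the scramble-labelled libraries (HMGB2-low). Each pair was tight and the gap between pairs was far wider than either. WAPL was 1.71-fold higher, with a log2 fold change of 0.78 ± 0.07 (SE; edgeR adjusted p = 1.39e-13), and 3.44% of all tested genes had a larger one. Over the 12 alternatives its log2 fold change ran from 0.73 to 0.81 and it was called in all of them.

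PDS5A and PDS5B bind RAD21 next to STAG proteins and serve both release by WAPL and protection of cohesion. PDS5A (chromosome 4, 39822863 to 39977911, minus strand) had 210 and 199 CPM in the HMGB2 siRNA-labelled libraries (HMGB2-high), against 138 and 163 CPM in the scramble-labelled libraries. The groups were apart, although the scramble libraries differed from each other by more than for most of the 10 genes. PDS5A was 1.36-fold higher, with a log2 fold change of 0.45 ± 0.07 (SE; edgeR adjusted p = 9.36e-07) that ran from 0.34 without scramble replicate 1 to 0.57 without scramble replicate 2 and was called in all 12 alternatives. PDS5B (chromosome 13, 32586432 to 32778019) had 49.6 and 52.2 CPM in the HMGB2 siRNA-labelled libraries, against 41.6 and 43.2 CPM in the scramble-labelled ones. PDS5B was 1.20-fold higher, with a log2 fold change of 0.26 ± 0.08 (SE, edgeR adjusted p = 0.00822). This call was lost without either HMGB2 siRNA-labelled library, at log2 fold changes of 0.30 without replicate 1 and 0.23 without replicate 2.

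**Figure D3:**
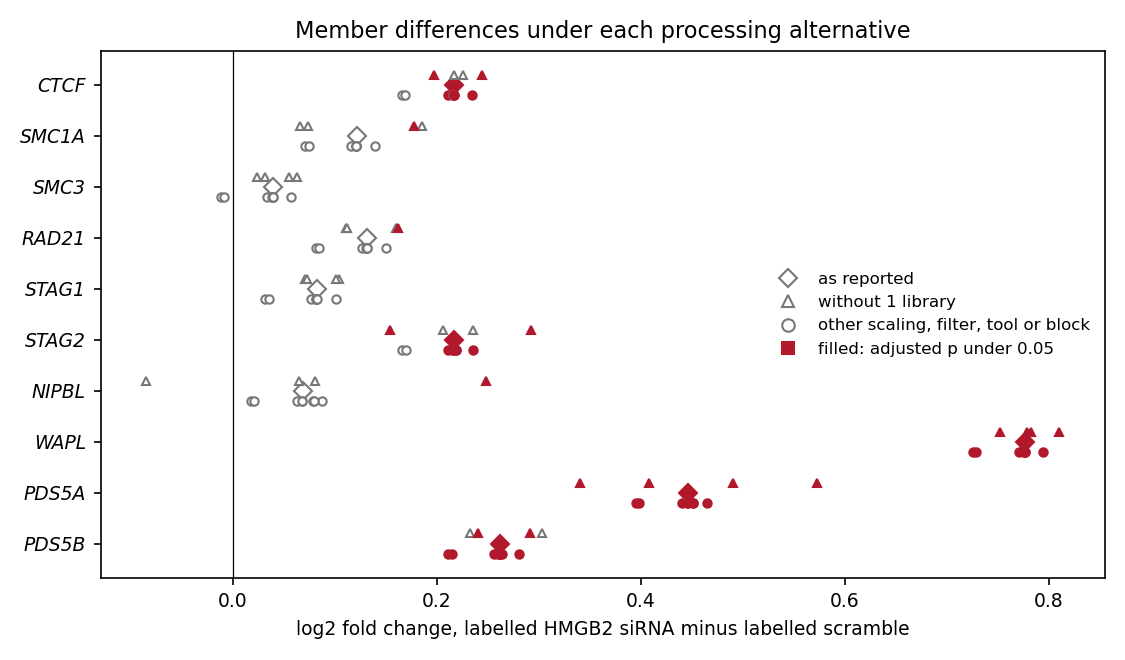
Log2 fold change of each gene (horizontal axis) as reported and under 12 alternatives, filled where the adjusted p is under 0.05. All WAPL and PDS5A symbols are filled, while NIPBL symbols lie between -0.08 and 0.25 on both sides of 0.

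Because the members act in one complex, their balance within a library was also compared, which removes the effect of scaling between libraries. The log2 ratio of NIPBL to WAPL per length was -2.03 and -2.02 in the HMGB2 siRNA-labelled libraries (HMGB2-high), against -1.47 and -1.19 in the scramble-labelled libraries (HMGB2-low). The NIPBL transcript was thus lower relative to that of WAPL in both HMGB2-high libraries, by a mean difference of -0.70 on the log2 scale. This restates the values above, where WAPL was called higher (log2 fold change 0.78) and NIPBL did not pass (0.07). The exact two-sided permutation p was 0.33, the smallest that 2 against 2 libraries can give. NIPBL shares exons with CPLANE1, as said above.

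STAG2 made up 66.4% and 65.4% of the summed STAG1 and STAG2 level per length in the HMGB2 siRNA-labelled libraries, against 62.4% and 65.1% in the scramble-labelled ones. The difference of 2.14 percentage points (exact permutation p = 0.33) was 0.807 points without scramble replicate 1 and 3.48 points without scramble replicate 2. PDS5A made up 81.1% and 79.4% of the summed PDS5A and PDS5B level in the HMGB2 siRNA-labelled libraries, against 77.1% and 79.2% in the scramble-labelled ones, and the difference of 2.13 points (exact permutation p = 0.33) was 1.05 points without scramble replicate 1 and 3.2 points without scramble replicate 2. The log2 ratio of CTCF to the geometric mean of SMC1A, SMC3 and RAD21 was -1.03 and -1.06 in the HMGB2 siRNA-labelled libraries, against -1.21 and -1.12 in the scramble-labelled ones, a difference of 0.12 (exact permutation p = 0.33) that was 0.08 without scramble replicate 1 and 0.16 without scramble replicate 2. STAG2 thus remained the major STAG transcript and PDS5A the major PDS5 transcript in all 4 libraries.

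**Figure D4:**
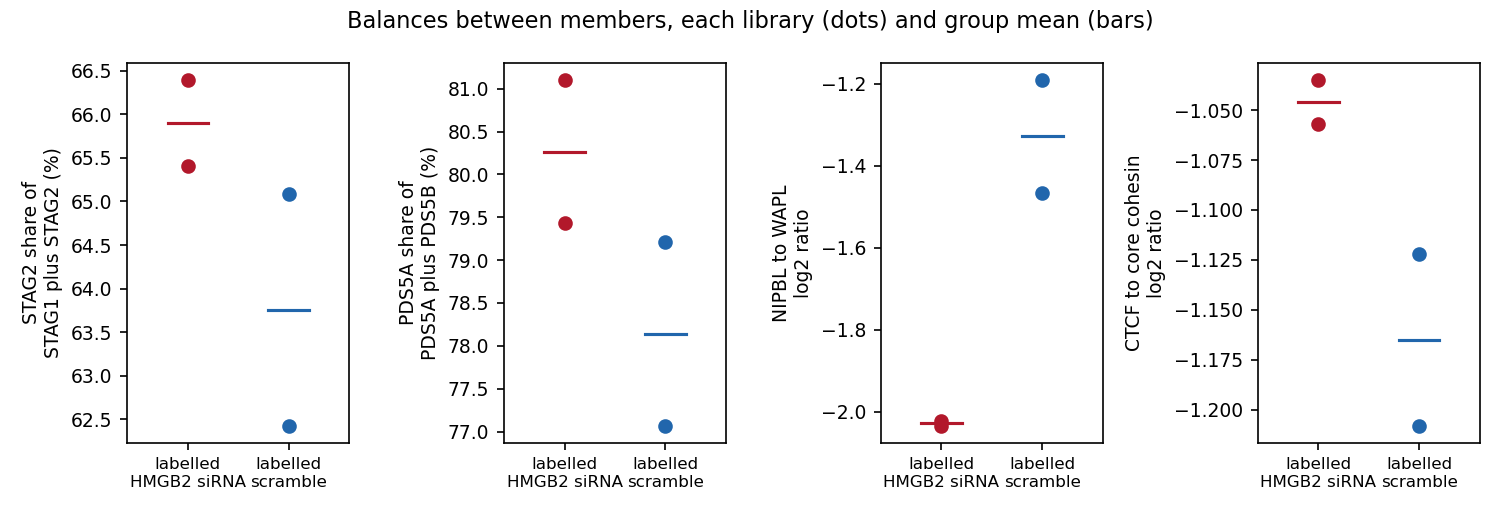
Balances between members in each library (dots) with group means (bars): shares in percent in the panels for STAG2 and PDS5A, log2 ratios in the others, each panel with its own axis range that does not start at 0. The NIPBL to WAPL ratio lies at -2.03 and -2.02 for the HMGB2 siRNA label and at -1.47 and -1.19 for the scramble label, and the STAG2 and PDS5A shares of scramble replicate 2 come close to those of the HMGB2 siRNA label.

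To show what the transcripts of WAPL carry, words in the 3′ untranslated region (3′UTR) were examined. Short 3′UTR matches to the seed of an siRNA can lower a transcript independently of the intended target. The heptamer GACAAAG and the overlapping pair of ATAGTAA with AATAGTA had been associated with the fold changes of these same libraries, so what follows is a description and no independent evidence. Among 12198 tested genes with a GENCODE 3′UTR, 26.2% held at least 1 of them, and those had a median log2 fold change of 0.09, against -0.01 for genes without. These medians take no account of 3′UTR length, and no siRNA sequence was set against the words. WAPL was the only member with GACAAAG, a word found in 12% of the 3′UTRs, and also held AATAGTA. SMC1A, SMC3 and NIPBL held ATAGTAA or AATAGTA (12.2% of 3′UTRs each) and were not called. CTCF, RAD21, STAG1, STAG2, PDS5A and PDS5B held none of the 3, among them 4 of the 5 genes called higher. HMGB2 itself held ATAGTAA and AATAGTA. The part of these words in the WAPL difference was not tested. The sites of WAPL and, for contrast, of the uncalled SMC3 and NIPBL are printed 5′ to 3′ as DNA from the GENCODE transcripts, with the heptamer in capitals:
WAPL, 49 bases into the 3′UTR: agctatccttaGACAAAGaaaagtcaagt
WAPL, 605 bases into the 3′UTR: tacacgggattAATAGTAtatttttttat
SMC3, 36 bases into the 3′UTR: gggagatgtatATAGTAAtatgattctca
NIPBL, 1305 bases into the 3′UTR: tgacactcaggAATAGTAatgcctaaaat

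The promoters of the genes that moved most, WAPL and PDS5A, are set beside that of CTCF, because all 3 were higher in the same libraries. RefSeq windows of 300 bases (GRCh38.p14), 250 before the annotated start and 50 after it, are printed 5′ to 3′ on the strand of the gene. Capitals mark matches on either strand to the CCAAT box, to the cell cycle homology region (TTTGAA), to an E2F-type site (TTTNNCGC) and to the GC box (GGGCGG). The CCAAT box is present in 34.6% of 35116 such windows, TTTGAA in 15.2%, the E2F-type site in 6.89% and the GC box in 45.0%. The E2F-type site and the GC box can overlap by a few bases, as they do for STAG1.
WAPL, chr10:86521743-86522042, minus strand: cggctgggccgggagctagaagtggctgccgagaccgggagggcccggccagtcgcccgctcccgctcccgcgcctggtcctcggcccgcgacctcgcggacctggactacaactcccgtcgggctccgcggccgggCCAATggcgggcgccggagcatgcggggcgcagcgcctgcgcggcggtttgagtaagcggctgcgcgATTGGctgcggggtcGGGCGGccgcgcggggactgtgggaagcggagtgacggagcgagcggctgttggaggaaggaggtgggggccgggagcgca
PDS5A, chr4:39977862-39978161, minus strand: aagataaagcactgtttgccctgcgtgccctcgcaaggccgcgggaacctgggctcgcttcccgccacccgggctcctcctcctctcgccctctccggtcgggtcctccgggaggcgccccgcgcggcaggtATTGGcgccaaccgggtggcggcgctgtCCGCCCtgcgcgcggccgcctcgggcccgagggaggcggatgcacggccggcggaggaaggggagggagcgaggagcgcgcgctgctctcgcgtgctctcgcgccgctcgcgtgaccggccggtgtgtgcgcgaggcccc
CTCF, chr16:67562276-67562575, plus strand: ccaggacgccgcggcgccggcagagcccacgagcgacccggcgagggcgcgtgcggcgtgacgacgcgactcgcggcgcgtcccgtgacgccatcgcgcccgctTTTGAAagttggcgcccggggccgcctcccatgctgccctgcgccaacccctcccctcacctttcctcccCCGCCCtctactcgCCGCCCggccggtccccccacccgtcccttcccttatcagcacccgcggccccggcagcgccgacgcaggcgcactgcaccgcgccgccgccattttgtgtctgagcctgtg

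These windows are rich in G and C, at 76.3% for WAPL, 76.0% for PDS5A and 75.3% for CTCF, beside a median of 58.7% over all windows. WAPL held CCAAT at 2 places and GGGCGG at 1, PDS5A held 1 of each, and CTCF held GGGCGG at 2 places and TTTGAA at 1. None of the 3 windows held TTTNNCGC, which was found for STAG1, NIPBL, SMC1A and STAG2. Of these only STAG2 was called higher. SMC1A and STAG2 each have several windows, and not all of them held the site. The window of PDS5B, which was also called higher, did not hold it. The matches are descriptions of these letters in these windows only.

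Among other genes of the cohesin cycle, 13 of 14 listed could be tested, and 7 were higher, 1 was lower and 5 did not pass, beside the 16.7% of all tested genes called higher and 14.1% called lower. The median log2 fold change of the 13 was 0.37. Most of those called higher are known to act in S phase or mitosis. DSCC1, part of the clamp loader that aids cohesion during replication, had 20.5 and 21.7 CPM in the HMGB2 siRNA-labelled libraries (HMGB2-high), against 12.5 and 11.9 CPM in the scramble-labelled libraries, and was 1.73-fold higher (edgeR adjusted p = 1.33e-07). In the files 7.54% of its exonic bases are shared with an uncharacterised gene on the opposite strand. Haspin (HASPIN), a mitotic histone kinase that binds PDS5 proteins, was 1.61-fold higher (adjusted p = 5.83e-07). PTTG1 encodes securin, the inhibitor of separase, and ESPL1 encodes separase.

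PTTG1 had 144 and 149 CPM in the HMGB2 siRNA-labelled libraries, against 104 and 86.4 CPM in the scramble-labelled ones, a fold of 1.54 (edgeR adjusted p = 8.1e-10). ESPL1 had 108 and 121 CPM in the HMGB2 siRNA-labelled libraries, against 79.1 and 73.3 CPM in the scramble-labelled ones, a log2 fold change of 0.59 (adjusted p = 3.24e-09). Both the protease that cuts RAD21 and its inhibitor were therefore higher in the same libraries. The acetyltransferases of SMC3 went opposite ways: ESCO2, which acts in S phase, was 1.47-fold higher (adjusted p = 0.000961), while ESCO1 had 25.8 and 27.0 CPM in the HMGB2 siRNA-labelled libraries, against 32.2 and 38.0 CPM in the scramble-labelled ones, a log2 fold change of -0.41 (adjusted p = 0.00044). ESCO1 was the 1 gene of this list called lower.

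SGO2, a shugoshin, and CDCA5, which encodes sororin, the antagonist of WAPL on replicated chromatin, made up the 7, at 1.38-fold and 1.30-fold. MAU2, the partner of NIPBL in the loader, had 45.6 and 44.0 CPM in the HMGB2 siRNA-labelled libraries and 46.4 and 42.8 CPM in the scramble-labelled ones and did not pass (log2 fold change 0.01, adjusted p = 0.956), nor did the SMC3 deacetylase HDAC8, the cohesion helicase DDX11, the clamp loader subunit CHTF18 or the shugoshin SGO1. CHTF8 had 0 counts in every library. All of its exonic bases are shared with DERPC, on the same strand, which also had 0 counts, so its level cannot be read from these files.

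Most listed genes of mitosis and S phase were called higher in the same libraries, and their values stand beside the cohesin genes because much of the cohesin cycle is timed with division. Of 20 G2/M genes 19 were called higher and 0 lower by edgeR (20 and 0 at an unadjusted p under 0.05), beside 16.7% of all tested genes called higher and 14.1% lower, with a summed level of 4081 and 4169 CPM in the HMGB2 siRNA-labelled libraries, against 2995 and 2652 CPM in the scramble-labelled ones. Of 20 S phase genes 14 were called higher and 1 lower (15 and 2 at an unadjusted p under 0.05). Their sums were 2828 and 2868 CPM in the HMGB2 siRNA-labelled libraries, against 2389 and 2089 CPM in the scramble-labelled ones. For neither list was the share of all tested genes at the unadjusted threshold computed. The sums of the 10 CTCF and cohesin genes were 1417 and 1426 CPM in the HMGB2 siRNA-labelled libraries, against 1193 and 1233 CPM in the scramble-labelled ones. The part of cell cycle distribution in the differences of the 10 genes was not tested.

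Of 12 genes whose products work with CTCF at borders or on its binding, 2 were called higher and 0 lower by edgeR (2 and 0 at an unadjusted p under 0.05). The share called higher was 16.7%, the same as the 16.7% of all tested genes, so the count gives no result about the list. At the unadjusted threshold the share of all tested genes was not computed. For 6 of the 12 both HMGB2 siRNA-labelled libraries lay above both scramble-labelled ones, against 32.0% of all tested genes. MAZ, a zinc finger factor found at borders with CTCF, had 319 and 309 CPM in the HMGB2 siRNA-labelled libraries (HMGB2-high), against 254 and 242 CPM in the scramble-labelled ones, a fold of 1.26 (edgeR adjusted p = 3.52e-05). YY1, which can bridge promoters and enhancers, was 1.14-fold higher (adjusted p = 0.025), a call lost in 6 of 12 alternatives. In the files MAZ shares 20.0% of its exonic bases, and YY1 31.8%, with a gene on the opposite strand. The other 10, ZNF143, PATZ1, VEZF1, LDB1, ADNP, CHD8, TOP2B, BRD2, PARP1 and NPM1, had log2 fold changes from -0.10 to 0.33 and did not pass. BRD2 also stands on alternative sequences of the assembly in the files, where its reads could be lost.

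Germline forms of the same proteins had low counts. CTCFL, the testis paralog of CTCF, had 1 and 3 counts in the HMGB2 siRNA-labelled libraries and 0 and 0 counts in the scramble-labelled ones. A count of 0 allows up to 3 counts, 0.136 and 0.144 CPM in these libraries, so no difference was detectable at this depth. SMC1B, the meiotic counterpart of SMC1A, had 9 and 4 counts in the HMGB2 siRNA-labelled libraries and 2 and 2 counts in the scramble-labelled ones, and was too low to test. REC8 and RAD21L1, meiotic kleisins, and STAG3, the meiotic STAG protein, were tested at 0.986 to 3.32 CPM and did not pass, with log2 fold changes of 0.00, -0.21 and -0.46. STAG3 shares 27.9% of its exonic bases with CASTOR3 on the opposite strand and PVRIG on the same strand, and REC8 also stands on an alternative sequence of the assembly, where its reads could be lost. Compared per length with at least 59.5 RPKM for RAD21, the meiotic kleisins had at most 0.585 RPKM, a value that for REC8 may miss such reads.

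Protocadherin beta genes, whose promoter choice depends on CTCF and cohesin, were looked up as possible targets. No gene of the 16 could be tested, and 15 had 0 counts in every library. In the files each overlaps, over most or all of its exon, a row for the whole cluster, which itself had 124 and 76 counts in the HMGB2 siRNA-labelled libraries, against 85 and 90 counts in the scramble-labelled ones, and did not pass (adjusted p = 0.788). The zeros are therefore no measure of expression of the single genes. The row for the cluster may lack reads over the shared bases too, since how these were counted is not given.

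The profiles most like those of CTCF and WAPL over the 4 libraries were found by the distance between centred log2(CPM + 1) values among 10651 other genes. GOLPH3L (distance 0.00735), POLD3 (0.0146) and C7orf50 (0.0169) were nearest to CTCF, beside a median distance of 0.283. CBR1 (0.0223), DCUN1D5 (0.0224) and COQ7 (0.0359) were nearest to WAPL, beside a median of 0.771. With 4 libraries such likeness is a description of the values and no more.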

How the data were processed

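Poly(A) RNA of Panc1 cells was sequenced in 4 libraries, 2 for each label. STAR, SAMtools 1.9, featureCounts of Subread 1.6.3 and DESeq2 are named, along with the build hg38 (GRCh38), in the submitters' processing notes. Deposited tables hold raw counts of reads per gene over its listed exons, per the file headers, with no rows lacking a gene name (0). How strand, multimapping and overlaps were set is not given in the sources used here. Tables were tied to samples by the deposit's own record, and groups follow the sample titles.

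Counts were tested with edgeR 4.0.16 (glmQLFit, glmQLFTest; R 4.3.3), a design with group alone, TMM factors and filterByExpr (minimum count 10, total 15), which left 15161 genes. The p-values were Benjamini-Hochberg adjusted over these, and genes under 0.05 called. The common biological coefficient of variation was 0.0507. The 95% intervals are the log2 fold change ± the t quantile times its SE (SE: absolute log2 fold change over the root of F). Floors use 3 counts and cover counting error only. RPKM divides TMM-scaled CPM by exon kilobases. Ratios within a library were compared by exact permutation over libraries. The edgeR procedure was tested on simulated data, where it recovered 32% of 1.25-fold differences, 70% of 1.5-fold, 86% of 2-fold and 98% of 4-fold ones.

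Alternatives comprised scaling by RLE, by upper quartiles or by total counts, no count filter, a mean of at least 1 CPM, DESeq2 1.42.0, limma-voom (limma 3.58.1), a replicate block and leaving out each library. The members and lists were chosen with earlier results of these data known. Named genes were the 10 members, HMGB2, up to 4 called genes with the smallest p of the regulator and partner lists, other list members needed to account for a count (chosen after their values were seen), the germline and protocadherin genes, and the 3 profiles nearest to CTCF and to the member with the smallest p, among genes of at least 5 CPM. The 3′UTRs are the longest per gene in GENCODE release 29 and promoters are from RefSeq, where 9 of the 10 members were used here. Replicates differed by more than sampling noise (chi-square per degree of freedom 2.93 for the HMGB2 siRNA label and 5.23 for scramble).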

Additional observations from a re-analysis of the deposited data

How the results depend on the processing

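HMGB2 was called in all 12 alternatives (log2 fold change 3.02 to 3.11). Of 120 values of the 10 members under alternatives, 103 kept direction and side of the threshold, 11 lost the call, 3 gained it and 3 turned sign. With RLE scaling both HMGB2-high libraries lay above both HMGB2-low ones for 9 members, beside 31.9% of all tested genes. With upper-quartile or total-count scaling this held for 7, beside 26.1% and 26.6%. The members called were 3 with upper-quartile and 3 with total-count scaling in place of 5, and 2 to 7 when 1 library was left out. SMC3 turned to -0.012 with upper-quartile and -0.0082 with total-count scaling, and NIPBL ranged from -0.0845 to 0.248 without 1 library. CTCF partners called were 1 with upper-quartile scaling, 1 with total-count scaling and 1 with DESeq2, in place of 2, and 1 to 2 without 1 library. Regulators called were 8 in every setting other than leaving out a scramble library (up to 10). Over all genes 4671 were called, and 2384 to 5195 without 1 library. Of these calls 54.3% were higher, but 42.0% with upper-quartile and 43.3% with total-count scaling. The cause of these shifts was not tested, although a fit without 1 library has fewer samples. With the replicate block 4457 genes were called and 5 members. Over the tested genes, the deviations of libraries with the same number from their group means had a correlation of -0.02. With 2 libraries per label this cannot show whether libraries with the same number share a culture or batch. The protocadherin genes gave no value in any setting because none could be tested.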
